A study of Homo sapiens with 6 samples.

Results

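The genes examined here build and load microRNAs (miRNAs), and they were measured in cells given an extra dose of one miRNA. They comprised RNASEN (now DROSHA), DGCR8, XPO5, DICER1, TARBP2, PRKRA and the Argonaute genes EIF2C1, EIF2C2, EIF2C3 and EIF2C4 (now AGO1, AGO2, AGO3 and AGO4). Every probe whose gene name in the array files is one of these was taken, which gave 15 of the 41000 probes on the array, for 10 of the 27328 gene names with a probe kept for the tests. RH36 is an embryonal rhabdomyosarcoma cell line, a line of a childhood tumour with muscle features, and it lacks the PAX3/FOXO1 translocation. RNA came from RH36 cells transfected with pre-miR-27a (n = 3) or with a negative pre-control molecule (n = 3), and each sample was labelled with Cy3 and hybridized to its own array. The labels give 10 nM of pre-miR-27a for the transfection with SiPORT reagent and 48 hours for the pre-miR-27a arrays. They state no concentration and no time for the pre-control arrays. The methods of the study name another reagent, a higher concentration and an earlier time. Both groups share the line, so only 1 cell line stands behind every value, and the labels call the samples biological replicates.

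MiRNAs are cut from long transcripts in steps. In the nucleus the Microprocessor, made of the ribonuclease DROSHA and its RNA-binding partner DGCR8, releases a hairpin, and exportin 5 (XPO5) carries it to the cytoplasm. There DICER1, helped by the double-stranded RNA-binding proteins TARBP2 and PRKRA, trims it to a short duplex, of which one strand is loaded onto an Argonaute protein and guides it to mRNAs. The Microprocessor is also known to cut hairpins near the start of the DGCR8 mRNA itself. GW182 proteins (TNRC6A, TNRC6B and TNRC6C) then link Argonaute to the enzymes that shorten the poly(A) tail and remove the cap of the mRNA.

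The sequences of miR-27a are shown because a miRNA hairpin is the substrate of the enzymes examined and the seed sets which mRNAs are paired. They are the RefSeq sequences on GRCh38.p14, where the hairpin lies on the minus strand at chr19:13836440-13836517, and its capitals mark both mature arms. In the mature sequences the capitals mark the seed, bases 2 to 8 from the 5′ end.
mir-27a hairpin: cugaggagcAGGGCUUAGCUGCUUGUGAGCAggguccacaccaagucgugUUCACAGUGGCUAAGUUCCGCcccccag
hsa-miR-27a-3p: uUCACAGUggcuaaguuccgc
hsa-miR-27a-5p: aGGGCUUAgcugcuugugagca
hsa-miR-27b-3p: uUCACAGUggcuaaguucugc
The 3p arm is the strand named miR-27a in the study. Its relative miR-27b-3p shares the seed and differs at 1 base, C19U. The level of the miRNA itself was not analysed here. Whether the transfected pre-miR-27a molecule has the form of the hairpin shown, and is cut by these enzymes, was not determined.

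All pre-control arrays lay on one slide with one scan and all pre-miR-27a arrays on another, so an effect of the slide and one of the transfection cannot be told apart. Spots well above background made up 69.9% to 73.9% of each pre-control array and 74.1% to 78.0% of each pre-miR-27a array, and local background had a median of 74.5 to 76 intensity units on the former and of 52.5 to 53 on the latter. The 8 spike-in controls that stood well above background throughout differed by −0.12 to 0.38 log2 units (median 0.21, pre-miR-27a minus pre-control, after 75th percentile scaling), and their part in the results was not tested. Of the myogenic markers, 6 of 7 had a probe well above background on all 6 arrays, MYOD1, MYOG and DES among them, while MYF5 was not well above background on any. The brightest probe of all 6 had a change below 0, from −0.95 (MYOG) to −0.01 (DES), as did that of 15399 of all 27328 gene names. In limma 0 passed, with MYOG at an adjusted p of 0.140, MYOD1 (−0.45) at 0.0787 and the others at 0.456 to 0.985. With the replicate number as a block, MYOG (adjusted p = 0.0334) and MYOD1 (0.0363) passed, where 8.10% of all gene names were called lower. The part of these 2 changes in the results that follow was not tested. Of 5 markers of blood, endothelium, epithelium and liver, 4 did not stand well above background on any array, and a dim ALB probe was so on 5 arrays.

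Signals are quantile-normalized log2 intensities, and a change is the pre-miR-27a mean less the pre-control mean, tested with limma with Benjamini-Hochberg adjustment over all 36469 probes kept and a threshold of 0.05. All 15 probes were kept, and 14 of them stood well above background on all 6 arrays. Of the 15 probes, 1 rose and 1 fell, against 7.83% of all probes called in either direction, 3.95% higher and 3.88% lower. With the replicate number as a block, again 1 rose and 1 fell, the same probes, against 7.24% of all probes called higher and 7.62% lower. Under 75th percentile scaling these 2 calls stayed, while the split over all probes moved from 1440 higher and 1416 lower to 1275 and 1981. The probe that rose belongs to DICER1 and the one that fell to DGCR8. By the brightest probe of each gene, limma called 0 of the 10 genes, where 7.40% of all 27328 gene names were called. SAM, a permutation-based test, also called 0 of the 10 at a false discovery rate of 5%. It was run here in its unpaired form, which differs in form and threshold from the SAM analysis of the study. In limma, 6 of the 15 probes had an unadjusted p under 0.05, where 24.8% of all probes did. By the brightest probe, 3 of the 10 genes did, and the share over all gene names was not determined. Values of the groups did not overlap for 7 of the 15 probes, against 32.5% of all probes, with 5 higher (14.8% of all probes) and 2 lower (17.8%). The median change over the 10 genes was 0.06, beside −0.04 over all gene names. In RNA from whole cultures, a change in the share of cells that express a gene and a change in RNA per cell cannot be told apart.

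**Figure D1:**
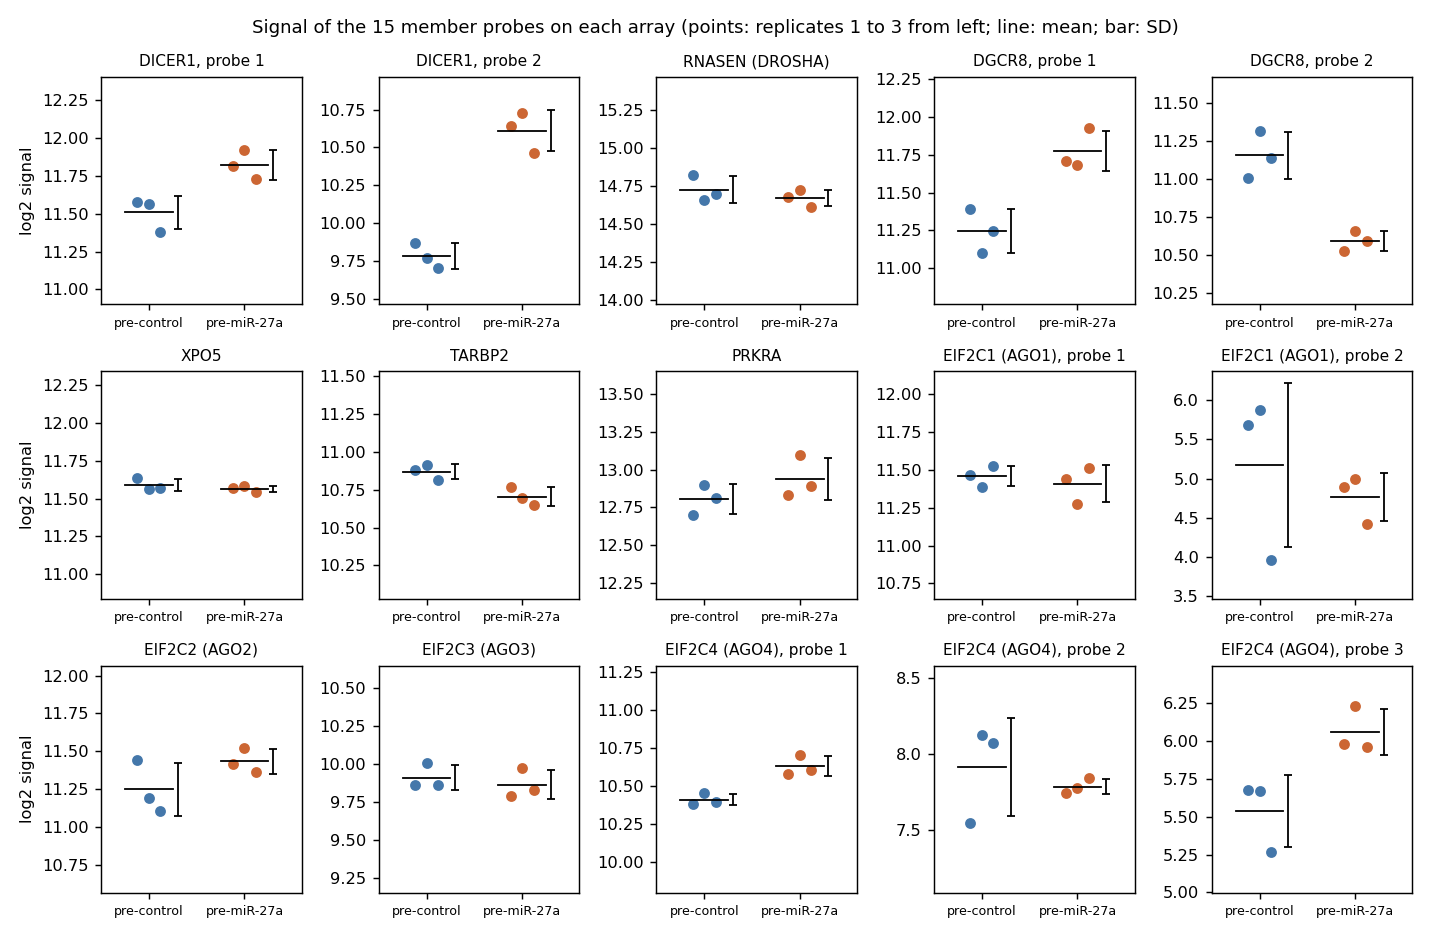
Log2 signal (vertical axis, centred per probe) of the 15 probes on the 3 pre-control and 3 pre-miR-27a arrays, with each group's mean (line) and SD (bar). Both DICER1 probes sit higher on pre-miR-27a arrays, the pair of DGCR8 probes moves in opposite directions, and RNASEN, XPO5 and EIF2C3 overlap.

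Within the Microprocessor, the DROSHA and DGCR8 probes differed in what they showed. RNASEN, the gene of the nuclear ribonuclease, was read by 1 probe (NM_013235) on chromosome 5 from 31437230 to 31437289 (hg18, minus strand). Its log2 signals were 14.83, 14.66 and 14.70 on pre-control arrays and 14.68, 14.72 and 14.62 on pre-miR-27a arrays. The groups overlap, and the change was −0.05 with a 95% interval of −0.26 to 0.15 (adjusted p = 0.741).

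DGCR8, the RNA-binding partner of DROSHA, was read by a pair of probes of the same transcript (NM_022720) on the plus strand of chromosome 22, and they went opposite ways. Probe 1, upstream at 18454131 to 18454190 (hg18), had log2 signals of 11.39, 11.10 and 11.25 on pre-control arrays and 11.71, 11.68 and 11.92 on pre-miR-27a arrays. The groups were separate, with pre-miR-27a higher, but the change of 0.53 (standard error 0.12, 95% interval 0.24 to 0.81) stood just outside the threshold (adjusted p = 0.0539). It passed in 5 of the 8 alternative settings with every array, with adjusted p from 0.0156 to 0.0567 over the 8. Probe 2 lies downstream at 18478916 to 18478975, 24725 bases from probe 1 in the genome. Its log2 signals were 11.01, 11.32 and 11.14 on pre-control arrays and 10.53, 10.66 and 10.59 on pre-miR-27a arrays, with no overlap. The signal fell by 0.56 (log2; adjusted p = 0.0378, standard error 0.11), to 67.6% of the pre-control level. The call held in all 8 alternative settings with every array, and SAM at 5% did not make it. It held in 0 of 6 settings with an array left out, where the change was −0.64 to −0.48 (adjusted p from 0.0526 to 0.127). Without pre-control replicate 2, or without any 1 of the pre-miR-27a arrays, 0 of all probes on the array were called. Not passing in those settings is therefore shared by every probe, here and for the genes below. Without pre-control replicate 3, 81 of all probes were called.

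Set against each other on the same array, probe 1 minus probe 2 of DGCR8 was 0.39, −0.22 and 0.11 on pre-control arrays and 1.19, 1.02 and 1.33 on pre-miR-27a arrays. The difference between the probes was thus 1.09 log2 units larger after pre-miR-27a, with no overlap between the groups. An exact permutation test that ignores pairing gave p = 0.1, two-sided, the smallest that 3 unpaired arrays against 3 allow. Probe 1 was higher and probe 2 lower on every pre-miR-27a array than on any pre-control array. The separation of their difference and its p were therefore fixed in advance and add no support. This comparison was chosen after the values were seen. The mean of both probes was at −0.02 (adjusted p = 0.908), so no single direction describes the gene. Which exon each probe lies in was not determined here.

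XPO5, the exporter of the hairpin, stayed within the spread between arrays. Its probe (NM_020750, chromosome 6 from 43598561 to 43598620, hg18) gave 11.63, 11.56 and 11.57 on pre-control arrays and 11.57, 11.58 and 11.54 on pre-miR-27a arrays. The groups overlap. The change was −0.02 with a 95% interval of −0.20 to 0.15 (adjusted p = 0.882), the narrowest interval of the 15 probes in the fit without the block.

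DICER1, the cytoplasmic ribonuclease, was higher on pre-miR-27a arrays by both of its probes. They lie on the minus strand of chromosome 14 (NM_177438), probe 1 at 94625986 to 94626045 and probe 2 upstream in the transcript at 94627185 to 94627337 (hg18). Probe 1 gave 11.58, 11.56 and 11.38 on pre-control arrays and 11.81, 11.92 and 11.73 on pre-miR-27a arrays. No values overlap, but the change of 0.31 (standard error 0.10, 95% interval 0.07 to 0.55) did not pass the test (adjusted p = 0.118, and 0.0527 with the replicate number as a block). Probe 2 gave 9.87, 9.77 and 9.70 on pre-control arrays and 10.64, 10.73 and 10.46 on pre-miR-27a arrays, again without overlap. It rose by 0.83 (log2; 95% interval 0.58 to 1.08, standard error 0.10, adjusted p = 0.0190), which is 1.78-fold. In size this change exceeded that of 93.6% of all probes. Probe 2 passed in all 8 alternative settings with every array and by SAM at 5%. With an array left out it was at 0.77 to 0.90 and passed only without pre-control replicate 1 (adjusted p from 0.0424 to 0.0783).

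The distance between the probes was also taken on each array. Probe 2 minus probe 1 of DICER1 was −1.71, −1.80 and −1.68 on pre-control arrays and −1.17, −1.20 and −1.27 on pre-miR-27a arrays. The groups do not overlap, and the shift was 0.52 log2 units (exact permutation p = 0.1, two-sided, unpaired), a comparison likewise chosen after the values were seen. The mean of both probes was at 0.57 and passed (adjusted p = 0.0402).

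**Figure D2:**
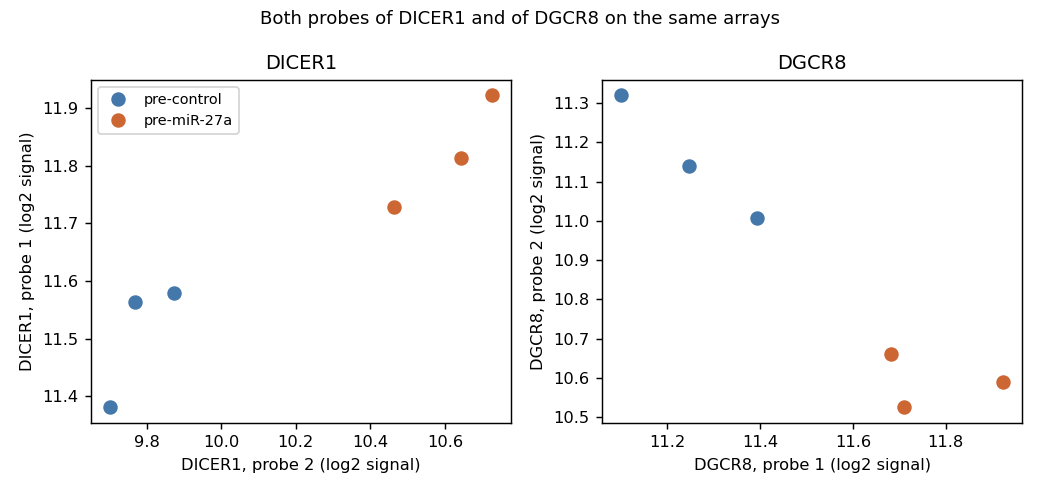
Log2 signal of one probe against the other on the same array, for DICER1 (left) and DGCR8 (right), with 3 pre-control and 3 pre-miR-27a arrays as points. The DICER1 groups separate along both axes in the same direction, and the DGCR8 groups separate towards higher probe 1 and lower probe 2.

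The partners of DICER1 did not pass the test. TARBP2 (NM_004178, chromosome 12 from 52186164 to 52186223, hg18) gave 10.88, 10.91 and 10.81 on pre-control arrays and 10.77, 10.70 and 10.65 on pre-miR-27a arrays. All pre-miR-27a values lie below all pre-control values by a small margin, and the change was −0.16 (95% interval −0.36 to 0.03, adjusted p = 0.257). PRKRA (NM_003690, on chromosome 2) gave 12.70, 12.90 and 12.81 against 12.83, 13.09 and 12.89. Its groups overlap, with a change of 0.14 (95% interval −0.12 to 0.40, adjusted p = 0.490).

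Of the Argonaute genes, which bind the mature miRNA, EIF2C4, EIF2C1 and EIF2C3 lie side by side on chromosome 1, where their probes fall within 201192 bases (36093007 to 36294198, hg18), and EIF2C2 lies on chromosome 8. None of their 7 probes passed the test in limma or SAM at 5%. The unadjusted p was under 0.05 for the brightest and the dimmest EIF2C4 probe alone.

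EIF2C2, the Argonaute with slicing activity, gave 11.44, 11.19 and 11.11 on pre-control arrays and 11.41, 11.52 and 11.36 on pre-miR-27a arrays (NM_012154). One pre-control value reached into the pre-miR-27a range, and the change was 0.18 (95% interval −0.10 to 0.47, adjusted p = 0.387). The brightest EIF2C1 probe (NM_012199) gave 11.46, 11.39 and 11.52 against 11.44, 11.28 and 11.51, a change of −0.05 (95% interval −0.28 to 0.18, adjusted p = 0.802). The second EIF2C1 probe was dim, was well above background on 2 of 3 pre-control arrays, and spread from 3.97 to 5.87 among them, and its change was −0.40 (standard error 0.53, 95% interval −1.73 to 0.92). EIF2C3 (NM_024852) gave 9.86, 10.01 and 9.86 against 9.79, 9.97 and 9.83, with overlapping groups and a change of −0.05 (95% interval −0.27 to 0.18, adjusted p = 0.807).

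EIF2C4 was read by 3 probes, and none passed the test. The brightest gave 10.38, 10.45 and 10.40 on pre-control arrays and 10.58, 10.70 and 10.60 on pre-miR-27a arrays, with no overlap. Its change was 0.22 (standard error 0.08, 95% interval 0.03 to 0.41, adjusted p = 0.149). The dimmest, at 5.67, 5.67 and 5.26 against 5.98, 6.23 and 5.96, also did not overlap, and was at 0.52 (adjusted p = 0.102). It passed in 1 of the 8 alternative settings with every array, normexp background correction (0.0478; up to 0.129 over the 8). The third probe, of middle brightness, was at −0.13 with overlapping groups (adjusted p = 0.703).

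**Figure D3:**
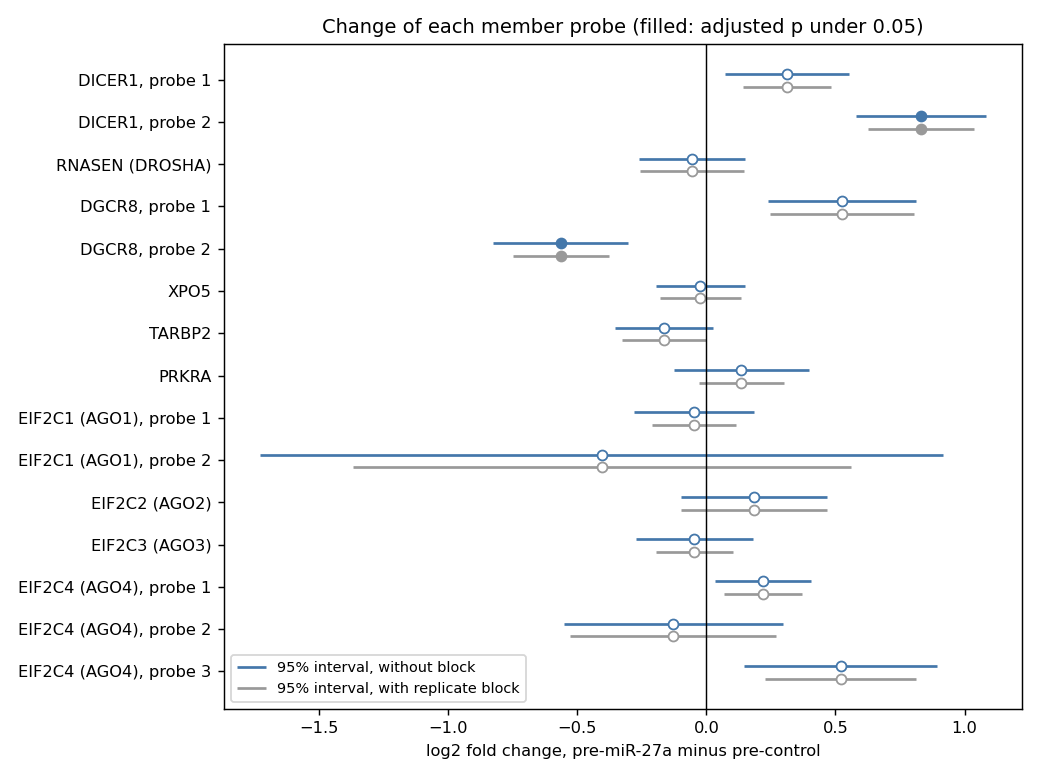
Log2 fold change of each of the 15 probes (horizontal axis, pre-miR-27a minus pre-control) with its 95% interval, without and with the replicate number as a block, where filled points have an adjusted p under 0.05. Only DICER1 probe 2 (0.83) and DGCR8 probe 2 (−0.56) are filled, in both fits.

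Other genes of the pathway were followed in 6 lists of 66 genes in all, and 64 of them could be tested. By the brightest probe, 4 rose and 1 fell in limma, against 3.07% of all gene names called higher and 4.33% called lower, and 59 did not pass. With the replicate block, the counts were 8 higher and 2 lower, against 5.97% and 8.10% of all gene names, and the 5 genes were among them. The median change of the 64 was 0.05, beside −0.04 over all gene names. The 64, and the 59 that did not pass, include the 4 PIWI genes, which gave no usable signal, and the dim LIN28.

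Among the 10 Microprocessor cofactors, such as the helicases DDX5 and DDX17, 0 were called by limma without the block, and KHSRP, which binds some miRNA precursors, was called with it (0.43, adjusted p = 0.0623 without and 0.0487 with the block). KHSRP was named after its values were seen, and it passed in 4 of the 8 alternative settings with every array (adjusted p up to 0.253). No other cofactor passed in either fit by its brightest probe, and by that probe the list ran from −0.13 to 0.43 with a median of 0.07. A dimmer DDX17 probe, also named after its values were seen, rose by 0.64 (adjusted p = 0.0282), and the brightest was at 0.03 (adjusted p = 0.885). Against 3.07% of all gene names called higher, 1 of the 10 genes for hairpin export, tailing and turnover rose. This was XRN2, a nuclear 5′-to-3′ exonuclease, with log2 signals of 13.53, 13.32 and 13.50 on pre-control arrays and 14.20, 14.14 and 14.05 on pre-miR-27a arrays. The change was 0.68 (standard error 0.09, adjusted p = 0.0215), with a clear gap between the groups. With an array left out, XRN2 was at 0.61 to 0.72 and passed only without pre-control replicate 1.

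The LIN28 proteins block the maturation of let-7. LIN28 (now LIN28A) was well above background on 1 pre-control and 1 pre-miR-27a array, with log2 signals of 4.55, 4.87 and 4.97 against 3.47, 4.10 and 2.19. The groups do not overlap, but at such dim signals the change of −1.54 (standard error 0.49) did not pass (adjusted p = 0.124). LIN28B was read by 2 probes well above background on all 6 arrays. The brighter was at 0.18 (adjusted p = 0.532) with overlapping groups, and the dimmer rose by 1.06 log2 units (adjusted p = 0.0362, standard error 0.19).

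Of the 15 measured genes for Argonaute loading and partners, 2 rose, 0 fell and 13 did not pass, where 3.07% of all gene names were called higher and 4.33% lower. The median change of the list was 0.18, beside −0.04 over all gene names. LIMD1, a scaffold protein that binds Argonaute, gave 5.48, 6.10 and 6.30 on pre-control arrays and 7.26, 7.55 and 7.37 on pre-miR-27a arrays. The groups did not overlap, and LIMD1 rose by 1.44 log2 units (adjusted p = 0.0268, standard error 0.23). The signal was low though well above background on all arrays, and after normexp background correction the change was 0.71 (adjusted p = 0.0179). With an array left out, LIMD1 was at 1.20 to 1.61 and passed only without pre-control replicate 1. FXR2, a relative of the fragile X protein, rose from 10.10, 10.05 and 10.19 to 10.53, 10.51 and 10.57, a change of 0.42 (standard error 0.08, adjusted p = 0.0359). Its groups were tight and separate, and it passed in 0 of the 6 settings with an array left out. With the block, FMR1 (0.37, adjusted p = 0.0405) and IPO8 (0.52, adjusted p = 0.0394) passed as well, both named after their values were seen. Each passed in 1 of the 8 alternative settings with every array, the block itself. Over the 8, the adjusted p reached 0.259 for FMR1 and 0.133 for IPO8.

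Of the GW182 genes, 1 of 3 rose, where 3.07% of all gene names were called higher. TNRC6C gave 11.89, 11.78 and 11.84 on pre-control arrays and 12.49, 12.63 and 12.36 on pre-miR-27a arrays. The change was 0.66 (standard error 0.10, adjusted p = 0.0235), and its dimmer probe gave 0.69 (adjusted p = 0.0613 without and 0.0334 with the block). TNRC6A was at 0.03 (adjusted p = 0.842) and TNRC6B at −0.18 (adjusted p = 0.315) by their brightest probes. A dimmer TNRC6B probe, chosen after its values were seen, was at −0.37 without overlap (adjusted p = 0.0910 without and 0.0426 with the block). Whether TNRC6C differs from TNRC6A and TNRC6B was not tested. TNRC6C passed in 0 of the 6 settings with an array left out (0.59 to 0.73).

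Of the 22 measured genes for deadenylation and decapping, 1 fell, 0 rose and 21 did not pass, where 4.33% of all gene names were called lower and 3.07% higher. The median of the list was −0.07, beside −0.04 over all gene names. TNKS1BP1, which binds the CCR4-NOT deadenylase, gave 9.68, 9.50 and 9.86 on pre-control arrays and 9.02, 8.92 and 9.02 on pre-miR-27a arrays. It fell by 0.70 (log2; adjusted p = 0.0273, standard error 0.11), without overlap, and passed in 0 of the 6 settings with an array left out. With the block, CNOT3 (−0.36, adjusted p = 0.0386) and PABPC1 (0.41, adjusted p = 0.0462) passed as well, both named after their values were seen. Of the 8 alternative settings with every array, CNOT3 passed in 1, the block itself, and PABPC1 in 5 (adjusted p up to 0.0798 and 0.132). The germline PIWI genes, relatives of the Argonautes, gave no usable signal: PIWIL1, PIWIL2 and PIWIL4 were not well above background on any array, PIWIL3 was so on 1 pre-miR-27a array, and no change is given for them.

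**Figure D4:**
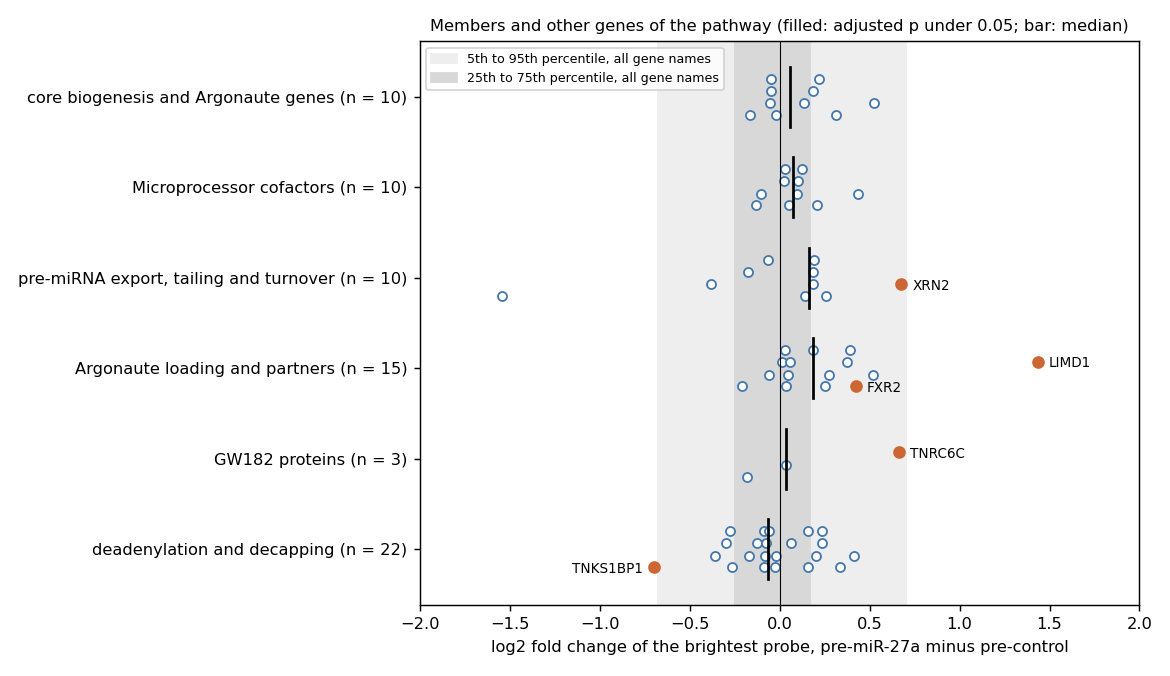
Log2 fold change of the brightest probe (horizontal axis, pre-miR-27a minus pre-control) of each gene of the core set and of the other lists except the PIWI genes, with bars at the list medians and shading for the 5th to 95th and 25th to 75th percentiles of all gene names. The filled points (adjusted p under 0.05) are XRN2, LIMD1, FXR2 and TNRC6C to the right and TNKS1BP1 to the left.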

How the data were processed

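Feature Extraction 10.5.1.1 gave, per the file headers, background-subtracted intensities and flags for each spot, which the authors deposited without normalization between arrays. The authors also deposited quantile-normalized log2 values of 33169 probes, used as an alternative (0 columns left unused). Here, log2 intensities of the spots other than controls were quantile normalized, signals without the found flag became missing, replicate spots were averaged, and a probe was dropped when missing on more than 1 array. limma 3.58.1 in R 4.3.3 compared 3 arrays with 3. No member spot was saturated. Only 3 arrays a group limit the precision (median standard error 0.14 log2 units). Arrays left out were dropped after normalization, and the code was tested on simulated data. SAM was written out as the two-class unpaired statistic with all relabellings. Normexp used an offset of 50.

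The members and gene lists were chosen with earlier results of these data known. All members were named by every probe, the brightest (highest mean signal) first as probe 1. In each other list, genes whose brightest probe passed were named, at most 4 by size, with all GW182, LIN28 and PIWI genes. Gene names and hg18 positions are those of the array files.

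Same-numbered arrays deviated together from their group means (r = 0.40, 0.46 and 0.41 over 31717 probes), so the replicate numbers, given by the labels, were taken to pair the arrays. Between different numbers r was −0.27 to −0.12, but centring each group on its own mean makes these values negative when the former are positive. Same-numbered arrays also held the same position on their slides, so a pairing of replicates and an effect of position cannot be told apart.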

Additional observations from a re-analysis of the deposited data

How the results depend on the processing

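Over all probes 2856 were called. The replicate block gave 5421 and SAM 1329. Of the 15 member probes, 2 were called, 4 after normexp background correction, which raised the count over all probes to 3539, and 1 by SAM. Of the 10 member genes by their brightest probe, 0 were called, and 1, DGCR8, after normexp, with only probes well above background, with only probes found on all 6 arrays, with the authors' deposited values, and with a variance trend and robust estimation. The mean of all the gene's probes gave 1, DICER1, and turned DGCR8 to −0.0195. The 5 other pathway genes became 8 with only probes well above background, 10 with the replicate block and 9 with a variance trend, while the count over all probes rose to 3629, 5421 and 3378. With 1 array left out, the calls were 0 to 1276 over all probes, 0 to 1 for member probes, 0 for member genes and 0 to 2 for other pathway genes, and leaving out pre-control replicate 1 gave the maximum each time. The fits without pre-control replicate 2 or any 1 of the pre-miR-27a arrays called 0 of all probes, so no gene could pass in them. At an unadjusted p under 0.05 the 6 fits with an array left out had 7178 to 8636 probes, 4 to 7 member probes, 1 to 3 member genes and 13 to 18 other genes. Changes near 0 turned sign without 1 array: XPO5 (−0.0361 to 0.00046) without pre-control replicate 1, EIF2C1 (−0.0993 to 0.0178) without pre-miR-27a replicate 2 and EIF2C3 (−0.101 to 0.00301) without pre-control replicate 2. The block changed no call among the member probes. The cause of these shifts was not tested.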

Other observations

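Several pathway genes whose brightest probe did not pass had another probe that did. By any passing probe, 13 of the 64 pathway genes had a higher probe and 2 a lower one among 121 probes tested. Per probe, 3.95% of all probes on the array passed as higher and 3.88% as lower. That share is not a like measure, since a gene with several probes can pass by any of them. The share of all gene names with any passing probe was not determined, so no excess can be read from these counts. The examples here were chosen after their values were seen. HSP90AA1, a chaperone that helps to load Argonaute, was higher by all 4 probes, and 3 of them passed (0.87, 0.98 and 0.72, with adjusted p of 0.0253, 0.0266 and 0.0376), while the brightest was at 0.39 (adjusted p = 0.158). HSP90AB1, its close relative, had 2 probes that passed, at 0.62 and 0.54, and since the paralogs are alike in sequence the array may not separate them fully. A dimmer probe of FMR1, the fragile X RNA-binding protein, gave 9.95, 9.73 and 9.63 on pre-control arrays and 11.34, 11.16 and 10.80 on pre-miR-27a arrays, a change of 1.33 (adjusted p = 0.0194), and its brightest probe was at 0.37 (adjusted p = 0.238). A dimmer probe of CNOT1, the scaffold of the CCR4-NOT deadenylase, fell by 0.61 on the log2 scale (adjusted p = 0.0224), and its brightest probe was at 0.16 (adjusted p = 0.392).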
